A study of Mus musculus with 72 samples.

Results

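Of the 55401 genes counted in this series, the 35 examined here encode subunits of mitochondrial complex I and are carried by the nuclear genome. They were chosen by name, as a list of Nduf symbols matched to the Ensembl identifiers of the gene table, and 35 of 35 were found. The rule for choosing them uses no measured value, but the list was chosen with earlier results of these data known. The samples were pieces of hippocampus from male mice, taken as the dorsal hippocampus (DH) or the ventral hippocampus (VH). The mice carried the genotype label C57BL/6J or C57BL/6NJ, written here as labelled 6J and labelled 6NJ. They came directly from the home cage, or 30 min after a cue alone (Cue), or 30 min after fear conditioning, which paired shock with the cue (Shock_Cue). Each of the 12 combinations of region, strain label and condition had 6 libraries, 72 in total, with no transgene or drug in any group and no group that was handled without a cue. Messenger RNA was read in bulk, so in every comparison fewer cells of a type and less RNA per cell cannot be told apart.

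Complex I, or NADH:ubiquinone oxidoreductase, is the first enzyme of the respiratory chain. It takes electrons from NADH, passes them along a row of iron-sulfur clusters to ubiquinone, and uses the energy released to pump protons across the inner mitochondrial membrane. It is L-shaped, with a matrix arm that holds the redox centres and a membrane arm that pumps. A small set of core subunits does the chemistry, and 7 of the core subunits are encoded by mitochondrial DNA. The many accessory subunits surround the core and are needed for assembly and stability. Neurons rely heavily on oxidative phosphorylation, and inherited complex I defects often show as brain disease such as Leigh syndrome.

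By role, 6 members are core subunits of the matrix arm (Ndufs1, Ndufs3, Ndufs7, Ndufs8, Ndufv1 and Ndufv2). Another 9 are accessory subunits of the matrix arm (Ndufv3, Ndufs4, Ndufs6, Ndufa2, Ndufa5, Ndufa6, Ndufa7, Ndufa9 and Ndufa12). The membrane arm is represented by 9 accessory subunits of its proximal part (Ndufa1, Ndufa3, Ndufa8, Ndufa10, Ndufa11, Ndufa13, Ndufc1, Ndufc2 and Ndufs5) and 10 of its distal part (Ndufb2 to Ndufb11). The last member is Ndufab1, the mitochondrial acyl carrier protein, which binds the complex and also serves fatty acid synthesis. Their genes lie on 15 chromosomes, with 5 members on chromosome 17 and 3 on each of chromosomes 1, 6, 7 and 19.

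Library totals ran from 30330382 to 56258370 counts, and the 35 members took 0.222% to 0.318% of them. A single member was counted at least 910 times (Ndufb4) and at most 8480 times (Ndufb9) in a library, so the members are not limited by low counts. As a check of the strain labels, Nnt, a mitochondrial transhydrogenase gene that is known to be disrupted in C57BL/6J, was at 36.4 to 44.3 CPM (counts scaled to a common library size) in DH libraries labelled 6J and at 18.3 to 22.9 CPM in those labelled 6NJ. This is against the labels, so every strain direction given here is a direction between labels. Hippocampal excitatory neuron and granule cell markers were present in every library, with Slc17a7 at 1072.6 CPM or more and Prox1 at 45.7 CPM or more. In 6 codes labelled 6J, 4 of the cue and 2 of the home cage, the acute-phase gene Lcn2 exceeded 2 CPM in both regions. In the home cage groups labelled 6NJ, the highest summed member level was that of code 41A in VH and of code 41B in DH. A code is shared by 1 DH and 1 VH library, and counts, directions or medians that change much when these codes are left out are given without them too. The labels do not say that the libraries of a group are separate mice, so the p-values measure the spread between libraries.

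Promoter sequences are shown for 3 of the genes on which the results below turn: Ndufa10, Ndufa9 and Ndufb4. Ndufa10 has the smallest p between regions and, in DH, the most uniform strain difference. Ndufa9 passed in both strain comparisons, as did Ndufs1 and Ndufv1. Ndufb4 has the largest strain difference in DH. Ndufa10 (ENSMUSG00000026260) lies on chromosome 1 from 92439010 to 92473860, Ndufa9 (ENSMUSG00000000399) on chromosome 6 from 126821721 to 126849136, and Ndufb4 (ENSMUSG00000022820) on chromosome 16 from 37647170 to 37654453, all on the minus strand of GRCm38. Each window is from RefSeq (GRCm38.p6), written 5′ to 3′ along the gene, and ends shortly after the transcription start, so it takes in the start of the first exon. Capitals mark matches on either strand to the motif letters GCGCANGCG (NRF1), AAGATGGC (YY1), TGACGTCA (CRE), GGGCGG (SP), CCGGAAG (ETS), CCAAT (NFY) and TCAAGGTCA (ERR). No 2 of these motif matches overlap in the windows shown.
Ndufa10, chr1:92473709-92474008, minus strand: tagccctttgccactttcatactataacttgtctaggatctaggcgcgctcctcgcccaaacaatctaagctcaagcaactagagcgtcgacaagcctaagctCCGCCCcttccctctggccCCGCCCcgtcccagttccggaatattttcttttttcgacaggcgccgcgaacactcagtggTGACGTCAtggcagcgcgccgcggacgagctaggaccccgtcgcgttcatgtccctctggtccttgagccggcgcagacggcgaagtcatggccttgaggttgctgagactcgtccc
Ndufa9, chr6:126849095-126849394, minus strand: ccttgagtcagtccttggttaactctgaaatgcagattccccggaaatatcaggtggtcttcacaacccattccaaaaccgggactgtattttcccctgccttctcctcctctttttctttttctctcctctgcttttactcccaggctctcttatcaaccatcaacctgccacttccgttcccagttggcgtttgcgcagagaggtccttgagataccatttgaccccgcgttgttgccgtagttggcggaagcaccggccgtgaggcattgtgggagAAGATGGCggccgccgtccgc
Ndufb4, chr16:37654319-37654618, minus strand: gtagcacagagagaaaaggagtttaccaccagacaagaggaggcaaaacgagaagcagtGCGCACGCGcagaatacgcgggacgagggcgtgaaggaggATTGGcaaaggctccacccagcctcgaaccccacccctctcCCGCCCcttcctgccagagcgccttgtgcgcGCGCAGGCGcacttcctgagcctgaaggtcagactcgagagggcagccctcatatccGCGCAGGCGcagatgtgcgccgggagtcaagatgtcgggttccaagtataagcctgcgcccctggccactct
In the Ndufa10 window the capitals are 2 SP matches, read on the reverse strand 147 and 128 bases before the start, and a CRE match 67 bases before it. The Ndufa9 window holds 1 match, the YY1 letters 29 bases after the start. The Ndufb4 window holds 3 NRF1 matches, at 191, 79 and 22 bases before the start, with an NFY match at 151 and an SP match at 110. The 3 genes thus share no motif among all 3 windows.

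RefSeq windows were found for 32 of the 35 members, 34 windows in all, and were set beside the 32851 windows of the whole table. NRF1 letters were in 9 of the 34 member windows (26.5%, against 6.25% of all windows), and YY1 letters in 7 (20.6%, against 2.75%). Ndufa5 and Ndufa7 had overlapping windows, so a site can be counted again, and by gene NRF1 letters were in 8 of 32. All 7 YY1 matches read in the direction of the gene and lay 22 to 38 bases after the start, in Ndufa3, Ndufa9, Ndufb8, Ndufc1, Ndufs4, Ndufs6 and Ndufs7. CRE letters were in 3 windows (8.82%, against 1.79%), those of Ndufa10, Ndufa11 and Ndufb2. SP letters were in 47.1% of member windows and 35.7% of all windows, ETS letters in 11.8% and 8.86%, and NFY letters in 29.4% and 37.4%. The ERR letters were in 0 member windows and 0.423% of all windows. None of the motifs was in 4 member windows, with both windows of Ndufa7 among them. Such a match is a description of letters in a short window, and factor binding was not measured.

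The members differed widely in level per length. Ndufb9, a distal membrane arm subunit, had the highest level at 460.0 ± 35.0 TPM (counts divided by length and scaled to a common sum; SD over 72 libraries), followed by Ndufa2 at 333.8 TPM and Ndufc2 at 331.4 TPM. Ndufab1 had the lowest, at 25.2 ± 1.39 TPM. These values divide the gene counts by the summed exon length of the gene, which counts rarely used exons too. From the estimated counts and lengths of single transcripts, Ndufa3 led at 438.6 TPM, Ndufb9 was in place 3 at 389.3 TPM, Ndufab1 was at 222.4 TPM and Ndufb4 was lowest at 75.8 TPM. The order of levels therefore depends on the length used, and for Ndufab1 it moves from the last place to place 14. In CPM, which does not correct for length, the steadiest members over the 72 libraries were 3 of the core subunits and Ndufa9, with coefficients of variation of 5.13% for Ndufs3, 5.89% for Ndufv1, 6.0% for Ndufa9 and 6.01% for Ndufs1. Ndufa2 varied most, at 13.3%.

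**Figure D1:**
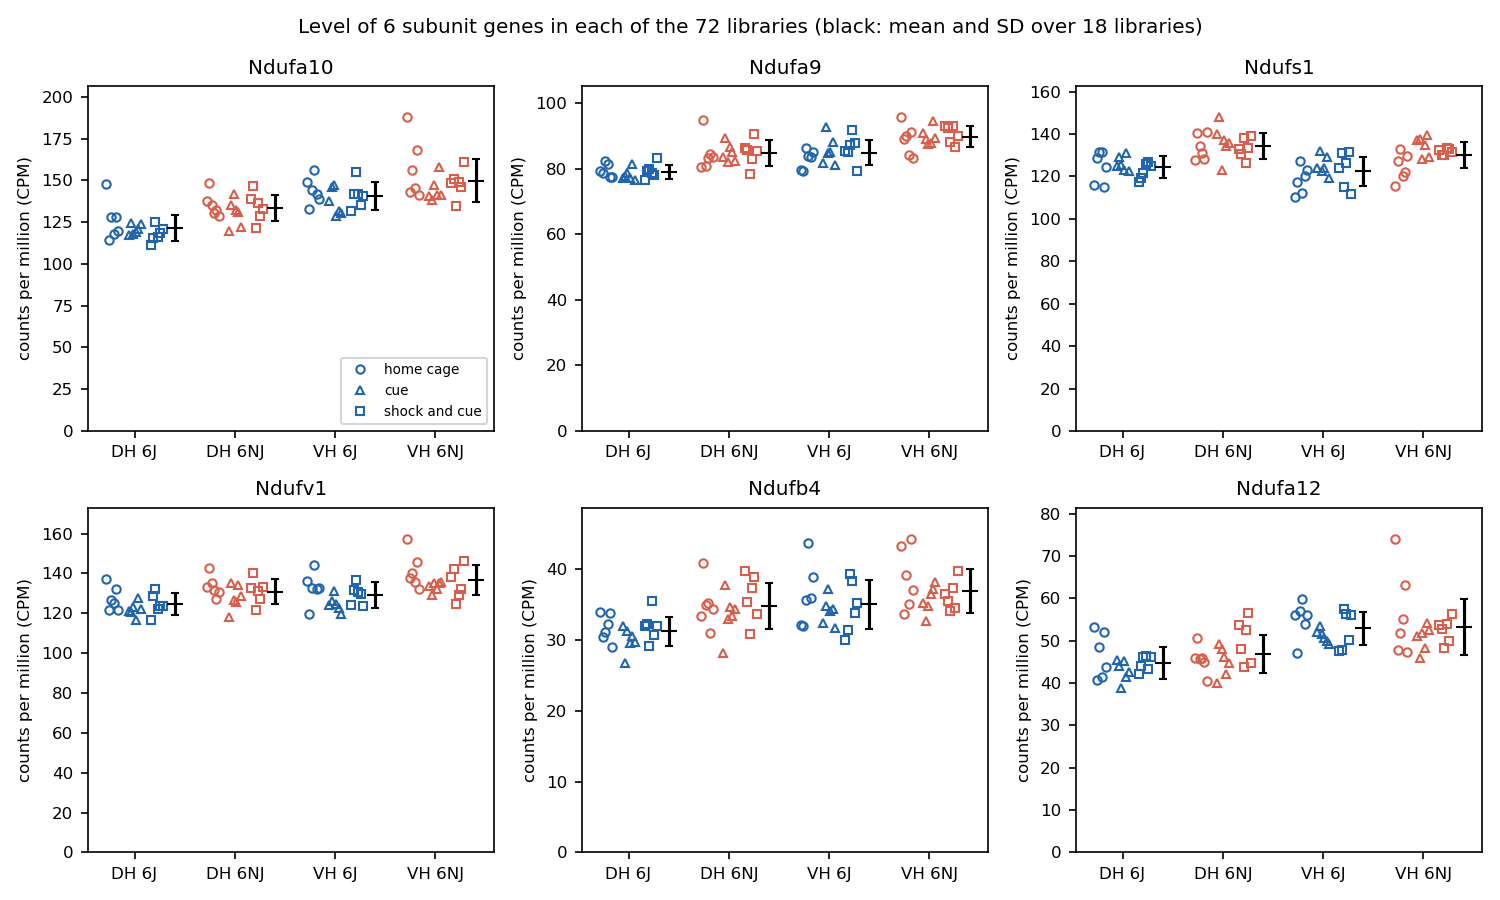
Level in CPM (vertical axis, from 0) of 6 members in each of the 72 libraries, by region and strain label, with the marker giving the condition and the black bar the mean and SD over 18 libraries. Ndufa10, Ndufa9 and Ndufa12 sit lower in DH than in VH, and Ndufa10, Ndufa9, Ndufs1, Ndufv1 and Ndufb4 sit higher in DH libraries labelled 6NJ than in DH libraries labelled 6J.

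The clearest pattern was between the regions: complex I subunit messages were lower in the dorsal than in the ventral hippocampus. Summed over the 35 members, DH libraries held 2460.1 ± 156.5 CPM (2240.4 to 2833.4) and VH libraries 2629.3 ± 193.1 CPM (2319.3 to 3327.5; SD, n = 36 each). The DH library was below the VH library of the same code in 29 of 36 codes. Of the 35 members, 29 were lower in DH (edgeR quasi-likelihood test, adjusted p under 0.05 over all genes) and 0 were higher. Of all 20255 genes tested, 30.9% were lower and 63.6% changed in either direction, so a difference between the regions was common in this tissue. The median log2 fold change, DH minus VH, was -0.102 over the members and 0.004 over all genes. The changes were small, from -0.22 to 0.06.

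Ndufa10, an accessory subunit on the matrix face of the membrane arm, gave the smallest p. Its level was lowest at 111.6, median 126.5 and highest at 148.3 CPM in DH, and 128.7, 142.5 and 187.8 CPM in VH. The ranges overlap, but the DH library was below its VH partner in 35 of 36 codes. The log2 fold change was -0.19 ± 0.0219 (SE; 0.876-fold, adjusted p = 7.44e-12, edgeR). Ndufa12, an accessory subunit near the junction of the matrix arm and the membrane, had the largest change. It ran from 38.8 to 56.4 CPM in DH (median 45.3) and from 45.9 to 74.0 CPM in VH (median 52.3), with DH lower in 32 codes and a log2 fold change of -0.22 ± 0.0294 (0.861-fold, adjusted p = 2.08e-09, edgeR).

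Members of every structural group were among the 29. In the distal membrane arm 9 of 10 subunits were lower in DH, led by Ndufb6 (-0.17 ± 0.0242, adjusted p = 8.35e-09), Ndufb5 (-0.13, adjusted p = 6.25e-08) and Ndufb7 (-0.19 ± 0.0312, adjusted p = 4.01e-07). Ndufb7 belongs to the subunits that are folded by disulfide bonds in the intermembrane space. In the proximal membrane arm 8 of 9 were lower, Ndufc2 (-0.15) and Ndufs5 (-0.15) among them. The exception was Ndufa1, a small subunit encoded on the X chromosome, at 0.00 (95% interval -0.06 to 0.06). Of the accessory subunits of the matrix arm 7 of 9 were lower, with Ndufa9, which binds a nucleotide near the ubiquinone site, at -0.10 ± 0.0146 (adjusted p = 3.55e-08) and lower in DH in 31 of 36 codes. Ndufab1 was lower as well (-0.12 ± 0.0182, adjusted p = 3.09e-08), at 42.7 to 56.0 CPM in DH and 47.5 to 58.3 CPM in VH.

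The members that did not pass between regions included subunits of the redox arm. Of the 6 core subunits, Ndufs8 (-0.14 ± 0.0255), Ndufv2 (-0.10), Ndufs7 (-0.10) and Ndufv1 (-0.06) were lower in DH. The other core subunits did not pass: Ndufs1 was at 0.03 (adjusted p = 0.0548, DH below VH in 10 of 36 codes) and Ndufs3, which binds no iron-sulfur cluster itself, at -0.01 (adjusted p = 0.497, 21 of 36 codes). Ndufs4, an accessory subunit whose loss causes a Leigh-like disease in mice, was at 0.06 (adjusted p = 0.0529), with 61.0 ± 4.57 CPM in DH and 58.7 ± 4.89 CPM in VH. Ndufa5 (0.03) and Ndufb11 (-0.05, adjusted p = 0.0824) were the others. With the code as a block, Ndufs1 passed as higher in DH (0.03, adjusted p = 0.024) and Ndufb3 no longer passed (adjusted p = 0.0609). Ndufb3 had the weakest of the 29 calls without the block (-0.06, adjusted p = 0.0385).

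Cell type markers moved with the region too, as did 63.6% of all genes tested. Of the oligodendrocyte markers 7 of 7 were higher in DH (summed level 6184.9 to 12670.2 CPM in DH and 3201.0 to 8122.6 CPM in VH), as were 6 of 6 dentate granule cell markers and 7 of 7 choroid plexus markers (40.3 to 8934.8 CPM in DH and 24.2 to 2345.4 CPM in VH). Of the pan-neuronal and excitatory markers 2 of 7 were higher and 5 lower in DH, and of the interneuron markers 4 of 6 were lower. Markers of microglia (5 of 6), blood (4 of 5) and CA3 and CA2 neurons (3 of 5, 1 lower) were higher in DH, markers of CA1 neurons were lower in 3 of 5 and higher in 1, those of astrocytes were higher in 3 of 6 and lower in 2, and 0 of 5 endothelial markers passed. None of these markers was at 0 on average in either region, and their part in the difference between regions was not tested.

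**Figure D2:**
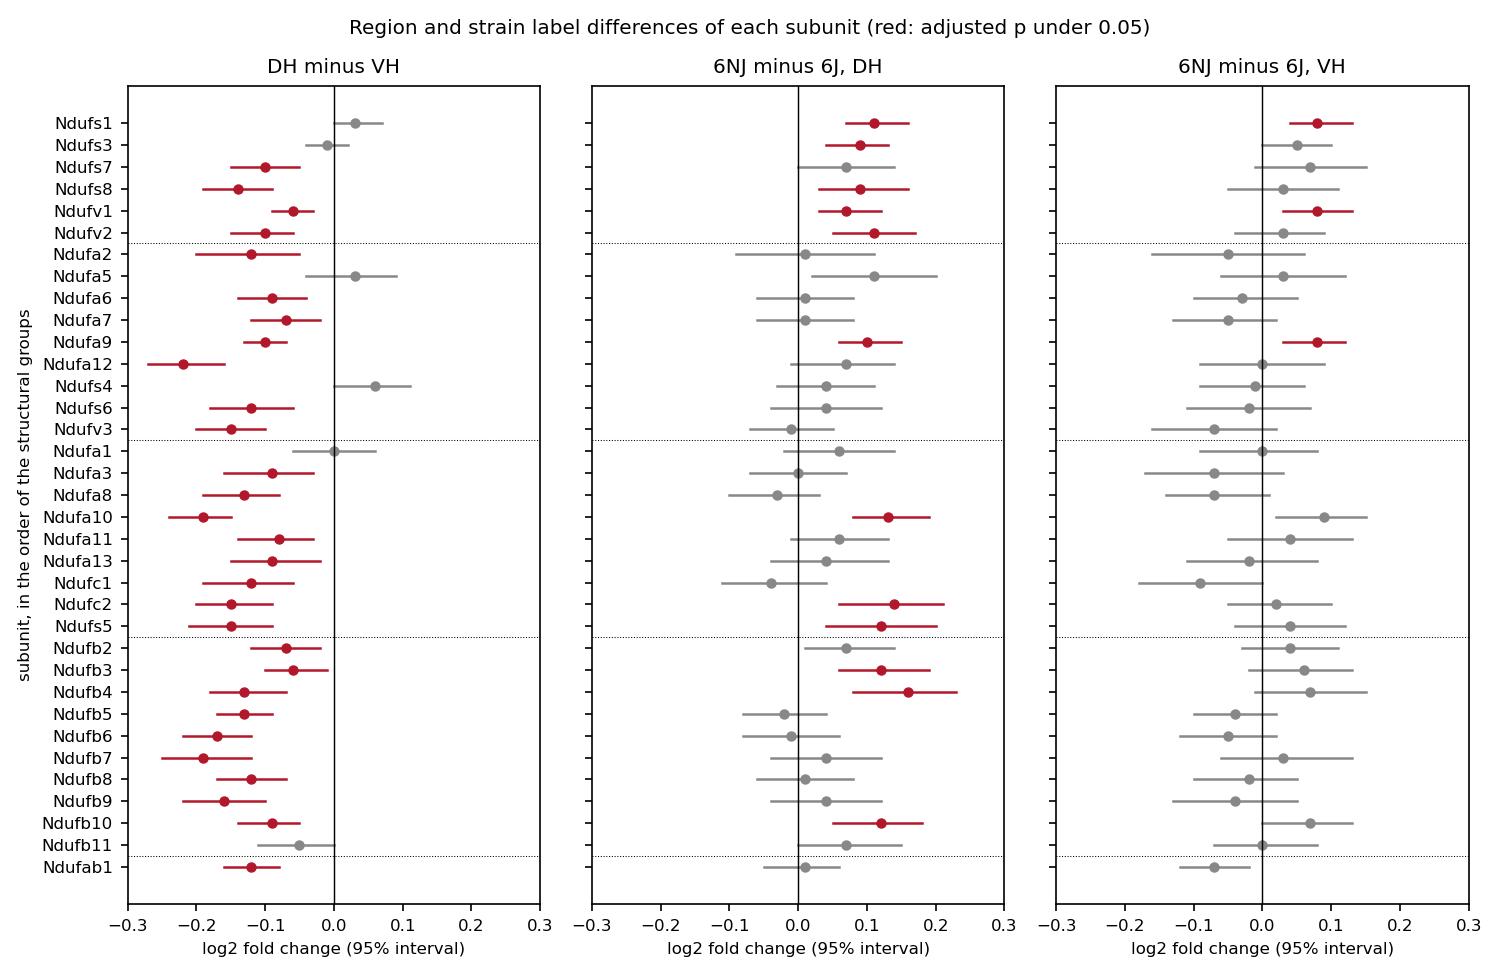
Log2 fold change (horizontal axis) with its 95% interval for each of the 35 members, in DH minus VH and in labelled 6NJ minus labelled 6J within DH and within VH; red marks adjusted p under 0.05. The region panel has 29 red members, all below 0, and the strain panels have 12 and 3, all above 0.

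Between the strain labels, several members were slightly higher under the label 6NJ, with more of them past the test in DH than in VH. Averaged over the 3 conditions, 12 of 35 members were higher in DH under the label 6NJ and 0 were lower (edgeR, adjusted p under 0.05). The background was 8.06% of 19647 genes higher and 14.7% changed in either direction. The median over the members was 0.059 and over all genes -0.005, and 29 of the 35 changes were above 0. The summed members were at 2408.8 ± 123.3 CPM under 6J and 2511.5 ± 172.2 CPM under 6NJ (SD, n = 18 each), so the sum itself differed by less than the SD within a label.

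Of the core subunits, 5 of 6 were higher in DH, of which Ndufs1 alone passed without the Lcn2 codes. Ndufs1, the largest core subunit, which carries several of the iron-sulfur clusters, was at 115.1, 125.0 and 131.7 CPM (lowest, median and highest) under 6J and at 123.0, 134.4 and 147.9 CPM under 6NJ. The ranges overlapped, and 17 of the 18 libraries labelled 6NJ were above the 6J median. Its log2 fold change was 0.11 ± 0.0229 (adjusted p = 0.000703, edgeR). The others were Ndufs3 (0.09 ± 0.0225, adjusted p = 0.00752), Ndufv2 (0.11 ± 0.0298, adjusted p = 0.0121), Ndufs8 (0.09 ± 0.0317, adjusted p = 0.0416) and Ndufv1, which binds the flavin that accepts electrons from NADH (0.07 ± 0.0223, adjusted p = 0.0248). Ndufs7, which carries the last cluster before ubiquinone, was at 0.07 (adjusted p = 0.151). Summed, the 6 core subunits were at 523.9 ± 15.9 CPM (500.9 to 554.5) under 6J and 558.4 ± 24.2 CPM (522.7 to 612.1) under 6NJ in DH.

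Of the accessory subunits of the matrix arm only Ndufa9 of 9 passed. It was at 76.4, 78.6 and 83.3 CPM under 6J and 78.3, 83.9 and 94.9 CPM under 6NJ, with 17 of 18 libraries above the 6J median (0.10 ± 0.0208, 1.07-fold, adjusted p = 0.00069, edgeR). In the membrane arm 3 of 9 proximal and 3 of 10 distal subunits passed. Ndufa10 was at 111.6, 119.5 and 147.8 CPM under 6J and 119.8, 132.6 and 148.3 CPM under 6NJ. All 18 of its libraries labelled 6NJ were above the 6J median (0.13 ± 0.0291, adjusted p = 0.00143). Ndufb4, a distal subunit, had the largest change, from 26.8, 31.2 and 35.5 CPM under 6J to 28.2, 34.5 and 40.9 CPM under 6NJ (0.16 ± 0.0369, 1.12-fold, adjusted p = 0.00307), with 15 of 18 libraries above the 6J median. The others were Ndufb3 (0.12), Ndufc2 (0.14), Ndufb10 (0.12) and Ndufs5 (0.12). The lowest changes were those of Ndufc1 (-0.04, adjusted p = 0.571), Ndufa8 (-0.03, adjusted p = 0.557) and Ndufb5 (-0.02, adjusted p = 0.666).

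In VH 3 of 35 members were higher under the label 6NJ and 0 lower, against a background of 4.87% of 19597 genes higher and 9.92% in either direction. They were Ndufs1 (0.08 ± 0.0232, adjusted p = 0.0161), Ndufa9 (0.08 ± 0.0216, adjusted p = 0.0204) and Ndufv1 (0.08 ± 0.0234, adjusted p = 0.0258; edgeR), and all 3 also passed in DH. In VH, Ndufs1 was at 110.3, 123.6 and 132.1 CPM under 6J and 115.3, 131.0 and 139.6 CPM under 6NJ. Ndufa9 was at 79.1, 85.1 and 92.8 CPM against 83.2, 89.7 and 95.6 CPM, and Ndufv1 at 119.5, 130.4 and 144.0 CPM against 124.7, 135.6 and 157.3 CPM. The groups overlapped in each case, with 16 (Ndufa9) and 15 (Ndufs1 and Ndufv1) of 18 libraries labelled 6NJ above the 6J median. Ndufa10 was at 0.09 (adjusted p = 0.0764), and the median over the members was 0.003.

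The strain change, labelled 6NJ minus labelled 6J with its sign, was higher in DH than in VH for 34 of 35 members. The members share the same libraries, so their directions are not separate observations. The median over the members of DH minus VH was 0.057. However, 0 members passed the test of that difference (2 at an unadjusted p under 0.05 with edgeR, and 0 passed with DESeq2). Of all 20255 genes 0.00494% passed it. A strain difference limited to DH was therefore not shown. Of the 12 members higher under 6NJ in DH, 10 were also among the 29 lower in DH than in VH, the exceptions being Ndufs1 and Ndufs3.

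The strain counts changed when codes were left out, and so did the counts over all genes. Without the 6 codes with Lcn2 above 2 CPM, 6 members passed in DH (Ndufa9, Ndufs1, Ndufa10, Ndufb4, Ndufc2 and Ndufb10) and 0 in VH (4 at an unadjusted p under 0.05). Over all genes, 907 of 20459 were then higher in DH, against 1583 of 19647 before, and 687 of 20437 in VH, against 954 of 19597. The lost members kept most of their size in DH, with Ndufs5 at 0.12, Ndufv2 and Ndufb3 at 0.11, Ndufs8 at 0.08, Ndufs3 at 0.07 and Ndufv1 at 0.06, and the median over the 35 members was 0.055. In VH, Ndufs1 was at 0.07 and Ndufa9 and Ndufv1 at 0.06.

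Without 41A and 41B, 8 members passed in DH and only Ndufs1 in VH, with 1122 of 19982 genes higher in DH and 809 of 19898 in VH. Lost in DH were Ndufs5 (0.10), Ndufb10 (0.09), Ndufs8 (0.07) and Ndufv1 (0.06), and in VH Ndufv1 (0.07) and Ndufa9 (0.06). The median over the members went to 0.036 in DH and to -0.014 in VH. Beside the members, 7 of 7 oligodendrocyte markers were higher in DH under the label 6NJ, with summed levels of 6184.9 to 10460.9 CPM under 6J and 7515.5 to 12670.2 CPM under 6NJ, as were 3 of 6 dentate granule cell markers. Of the astrocyte markers 2 of 6 and of the endothelial markers 2 of 5 were lower. These marker counts are from the fit with all codes, where 14.7% of all genes changed in either direction. The part of these cells in the result was not tested.

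Within single conditions fewer strain differences passed. In DH after Shock_Cue only Ndufa10 passed (0.19 ± 0.0504, adjusted p = 0.0411, edgeR; background 2.14% of genes), at 111.6, 117.2 and 124.8 CPM under 6J and 121.6, 134.8 and 146.8 CPM under 6NJ. There all 35 members, which share the same libraries, were above 0, as were 9562 of 19647 genes. The median over the members was 0.096, and 13 members had an unadjusted p under 0.05. A fit of only the compared groups left 0 calls, and DESeq2 called 4 (Ndufa10, Ndufb10, Ndufb2 and Ndufb3). In DH 0 members passed in the home cage (5 at an unadjusted p under 0.05, DESeq2 0; background 0.931%) or after the cue (9, DESeq2 1; background 2.72%). In VH 0 passed in the home cage (3, DESeq2 0; background 1.35%), after the cue (3, DESeq2 0; background 1.76%) or after Shock_Cue (1, DESeq2 0; background 0.771%).

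**Figure D3:**
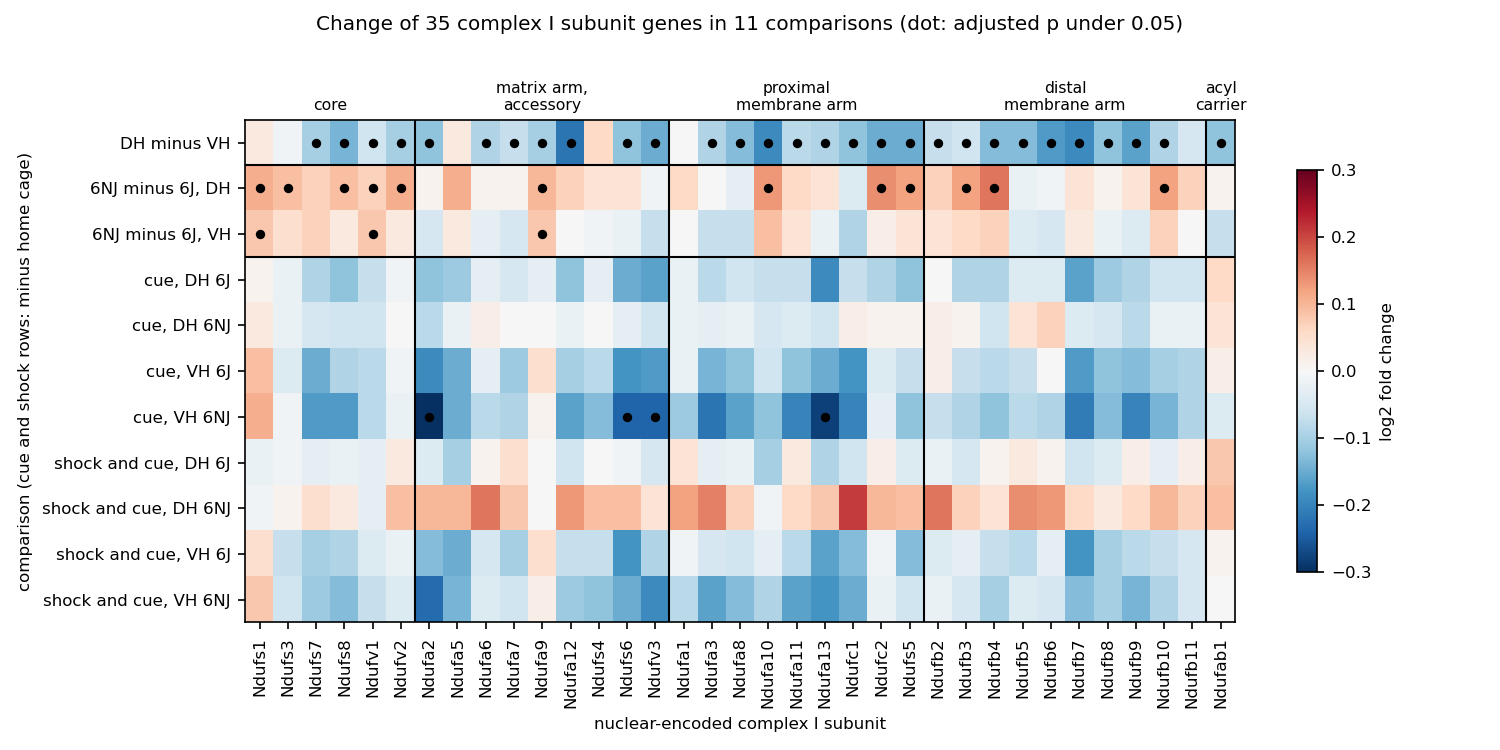
Log2 fold change (colour, blue lower and red higher) of the 35 members, ordered by structural group, in 11 comparisons; dots mark adjusted p under 0.05. The 29 dots of DH minus VH fill most of the top row, the strain rows hold 12 and 3 dots, and of the 8 rows for cue and for shock and cue only the cue row of VH labelled 6NJ holds any, 4.

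Single transcripts of the members were examined in the table of estimated counts, which held 173 of them among 119414. In DH 10 of the 151 tested were higher under the label 6NJ and 0 lower (background 2.9% of all transcripts tested, either direction). They included Ndufs1-201 (0.14, adjusted p = 0.00337), Ndufa9-203 (0.22, adjusted p = 0.001), Ndufa10-201 (0.25, adjusted p = 0.00962) and Ndufb4-201 (0.28, adjusted p = 0.00181), all from genes that passed as a whole. Ndufb4-201 rose from 9.08 to 11.1 CPM on average, and it was the only member transcript past the test in VH (0.23, adjusted p = 0.027; background 2.18%). Ndufb10-205, annotated as a retained intron, had the largest change in DH (0.59, adjusted p = 0.0309), from 7.16 to 10.8 CPM. Transcripts passed in 3 genes that did not pass as a whole, with Ndufa5-201 (0.31, adjusted p = 0.0208), Ndufb2-205 (0.11, adjusted p = 0.0318) and Ndufv3-201 (0.22, adjusted p = 0.00207).

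Ndufv3, an accessory subunit beside the NADH site, showed 2 transcripts that differed in their pattern. The gene is known to give a long and a short protein by inclusion or skipping of a coding exon, and it lies on chromosome 17 from 31520115 to 31531331 (ENSMUSG00000024038, plus strand). Ndufv3-201, with 1582 bases, was at 9.89 ± 1.15 CPM under 6J and 11.6 ± 0.95 CPM under 6NJ in DH. Ndufv3-202, with 493 bases, was at 39.7 and 38.1 CPM (-0.06, adjusted p = 0.612). Both are annotated as coding. In VH the longer transcript was at 9.8 and 11 CPM (0.17 ± 0.0571, adjusted p = 0.135) and the shorter at 47.5 and 43.5 CPM (-0.13, adjusted p = 0.356). Between regions the shorter transcript was lower in DH (-0.22 ± 0.0383, adjusted p = 3.98e-06), and the longer was at 0.04 (adjusted p = 0.466).

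As a share of the estimated counts of both, the long transcript took 20 ± 2.19% under 6J and 23.3 ± 1.97% under 6NJ in DH. In VH it took 17.2 ± 1.82% and 20.4 ± 1.82% (SD, n = 18 each). The counts were not divided by transcript length, and a longer transcript gives more reads per molecule. These are therefore shares of reads and not of transcript molecules. In DH the lowest, median and highest shares were 16.3, 20.1 and 23.7% under 6J and 19.7, 23.6 and 27.1% under 6NJ. In each region 17 of 18 libraries labelled 6NJ were above the 6J median, and the share was higher in DH than in VH in 34 of 36 codes. The share was looked at after the transcript values were seen, so it is a description and was not tested.

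**Figure D4:**
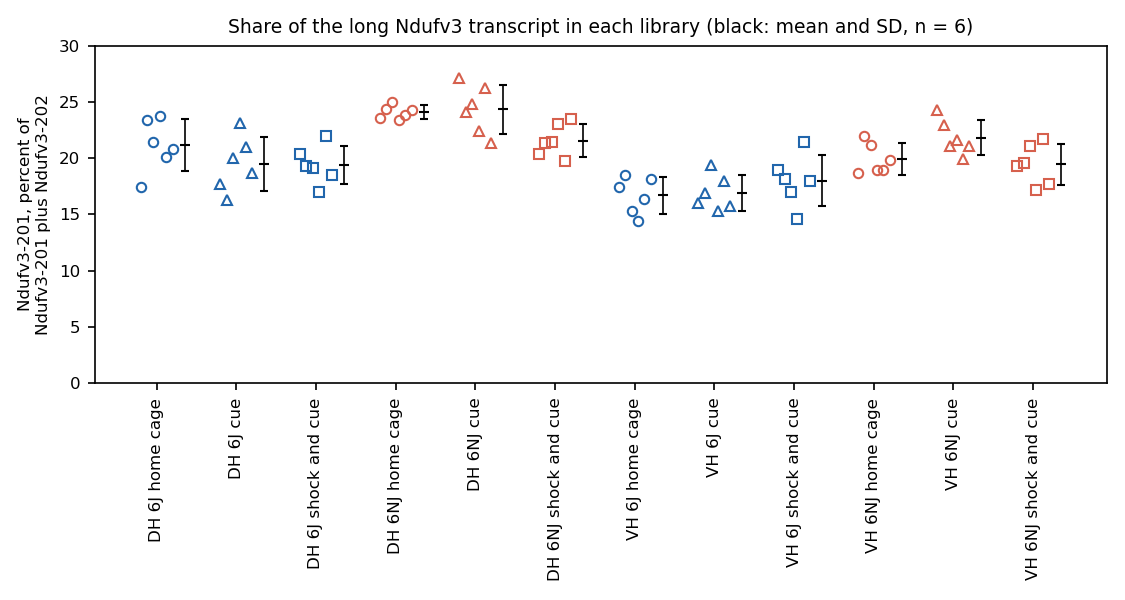
Share of Ndufv3-201 in the summed estimated counts of Ndufv3-201 and Ndufv3-202 (vertical axis, percent) in each library of the 12 groups. The counts are not corrected for transcript length, and the mean and SD of 6 libraries are in black. Libraries labelled 6NJ (red) sit above most libraries labelled 6J (blue) in both regions, with 18-library means of 23.3% against 20% in DH and 20.4% against 17.2% in VH.

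Between regions, 39 member transcripts of 154 tested were lower in DH and 2 were higher (background 26.9%, either direction). Counted in either direction, member transcripts thus passed about as often as all transcripts. The share of all transcripts that were lower was not computed. The 2 higher ones were both from Ndufs4, Ndufs4-201 (0.11, adjusted p = 0.00731) and Ndufs4-204 (0.10, adjusted p = 0.0232). Ndufa12-201 (-0.32, adjusted p = 1.86e-09) and Ndufa10-207 (-0.24, adjusted p = 4.4e-08) were among the lower ones. Ndufa10-207, annotated as a target of nonsense-mediated decay, took 56.9% of the estimated counts of Ndufa10, and Ndufa10-201 was lower as well (-0.21, adjusted p = 4.69e-05).

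The question of the 2 other groups of each region is what a cue, with or without shock, does to these genes 30 min later. The cue and the Shock_Cue comparisons share the home cage libraries. In VH labelled 6NJ, 4 of 35 members fell after the cue alone and 0 rose (edgeR; background 5.89% of genes lower and 12.9% in either direction). They were Ndufa13, a membrane-anchored subunit also known as GRIM-19, Ndufa2, a thioredoxin-like subunit of the matrix arm, Ndufv3, and Ndufs6, a zinc-binding subunit that is needed late in assembly. Ndufa13 was at 116.4, 127.3 and 173.1 CPM in the home cage and 100.6, 112.6 and 118.8 CPM after the cue (-0.28 ± 0.081, adjusted p = 0.0205). Ndufa2 was at 54.2, 60.7 and 86.4 CPM and then 46.3, 53.1 and 56.3 CPM (-0.30 ± 0.0933, adjusted p = 0.0337). In both genes the groups overlapped at their edges, and 1 home cage library, 41A, was highest.

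Ndufv3 went from 56.0, 64.0 and 85.9 CPM to 54.0, 56.4 and 60.9 CPM (-0.24 ± 0.0749, adjusted p = 0.0346), and Ndufs6 from 32.6, 36.1 and 50.8 CPM to 29.9, 33.1 and 34.0 CPM (-0.24 ± 0.0768, adjusted p = 0.0381). The highest values were again those of 41A. Ndufs1 was at 0.11 ± 0.0402 (adjusted p = 0.0683), and DESeq2, which called 4 members lower as well, called it higher. Without 41A and 41B, 0 of the 4 passed (Ndufa13 at -0.22, adjusted p = 0.103, Ndufa2 at -0.23, adjusted p = 0.114, Ndufv3 and Ndufs6 at -0.17, adjusted p = 0.141). No low-count filter and a fit of only the compared groups also gave 0 calls, and without the Lcn2 codes Ndufa13 alone passed. The median over the members was -0.122, and -0.078 without 41A and 41B. In the same comparison 12 of 20 cytosolic ribosomal protein genes fell, with a median of -0.202, and no cell type marker passed.

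In the other cue comparisons 0 members passed with edgeR. In VH labelled 6J 9 had an unadjusted p under 0.05 (DESeq2 0 calls; background 12.8%), with a median of -0.085, against -0.122 in VH labelled 6NJ. A fit of only the compared groups called 8 members lower in VH labelled 6J, where it called 1126 of 18653 genes lower and 1264 higher. In DH the medians were -0.071 under 6J (5 at an unadjusted p under 0.05, DESeq2 1; background 5.89%) and -0.019 under 6NJ (0, DESeq2 0; background 2.36%). The direction in DH under 6NJ turned without 41A and 41B, to a median of 0.033 with 29 of 35 members above 0, against 12 with them. After Shock_Cue against the home cage, 0 members passed in any of the 4 groups of libraries. The medians were -0.022 in DH under 6J (0 at an unadjusted p under 0.05, DESeq2 0; background 1.76%), 0.080 in DH under 6NJ (6, DESeq2 1; background 3.57%), -0.071 in VH under 6J (2, DESeq2 0; background 3.11%) and -0.088 in VH under 6NJ (5, DESeq2 0; background 8.65%). Without 41A and 41B the median was 0.131 in DH under 6NJ, with 19 members at an unadjusted p under 0.05 and 1 past the test, and -0.049 in VH under 6NJ, with 0 at an unadjusted p under 0.05. Without the Lcn2 codes it was -0.110 in VH under 6J, with 8 at an unadjusted p under 0.05. Ndufc1, a small proximal subunit, had the smallest p of these in DH labelled 6NJ, at 0.21 ± 0.0667 (adjusted p = 0.0678).

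Between Shock_Cue and cue, 0 members passed, and with edgeR 0 genes of all those tested did (background 0.0% in all 4 comparisons). DESeq2 called 2 genes lower in DH 6J and 1 lower in VH 6J, none of them a member. With edgeR 1, 7, 0 and 0 members had an unadjusted p under 0.05 in DH 6J, DH 6NJ, VH 6J and VH 6NJ, and DESeq2 called 0 in each. The medians of Shock_Cue minus cue were 0.055, 0.096, 0.012 and 0.037. Whether a response differed between the strain labels was tested directly, and 0 members passed for the cue or for Shock_Cue in DH or VH (edgeR, 0 to 2 at an unadjusted p under 0.05; DESeq2 0; background 0.0%). The members share the same libraries, so their directions are not separate observations. In DH the response to Shock_Cue was higher under the label 6NJ for 35 of 35 members (9882 of 19647 genes), by a member median of 0.086. To the cue it was higher for 34 of 35 (9878 of 19647 genes), by 0.045. Without 41A and 41B these medians were 0.134, with 10 members in place of 2 at an unadjusted p under 0.05, and 0.102, and again 0 members passed.

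**Figure D5:**
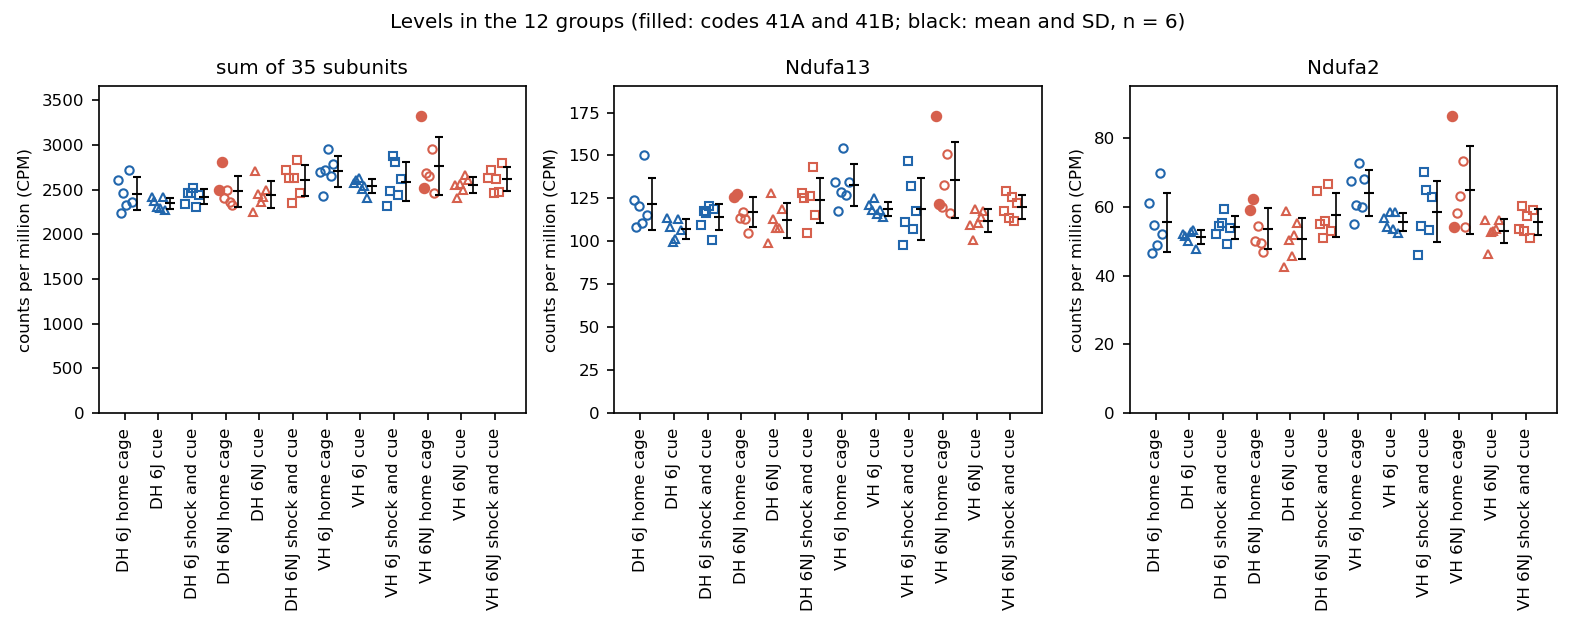
Level in CPM (vertical axis, from 0) of the summed 35 members, Ndufa13 and Ndufa2 in each library of the 12 groups, with the mean and SD of 6 libraries in black and the codes 41A and 41B filled. In VH labelled 6NJ the home cage library 41A is highest in each panel, at 3327.5 CPM for the sum, 173.1 CPM for Ndufa13 and 86.4 CPM for Ndufa2.

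The summed level of the members in every group shows how close the groups lie. In DH labelled 6J it was 2456.2 ± 183.7 CPM in the home cage, 2347.1 ± 62.3 CPM after the cue and 2423.1 ± 81.2 CPM after Shock_Cue. In DH labelled 6NJ it was 2482.6 ± 175.3, 2445.9 ± 153.0 and 2605.9 ± 172.5 CPM. In VH it was 2705.8 ± 172.7, 2544.5 ± 79.4 and 2591.5 ± 216.2 CPM under 6J and 2767.6 ± 323.7, 2550.9 ± 89.2 and 2615.8 ± 132.6 CPM under 6NJ (SD, n = 6 each). The order of the 12 means starts with DH 6J after the cue and ends with VH 6NJ in the home cage, and most neighbours in it differ by less than their SD.

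The wider respiratory chain was compared with lists of its other genes. Between regions 30.9% of all genes tested were lower in DH and 63.6% changed in either direction, so several calls in a list are common. Between regions the other complexes went the same way as complex I: 3 of 4 complex II genes, 8 of 9 of complex III, 11 of 11 of complex IV and 13 of 16 gene models of complex V were lower in DH and 0 higher, with medians of -0.070, -0.137, -0.144 and -0.086. The mitochondrially encoded subunits of complex I, which form the core of its membrane arm, were lower in 5 of 7, with mt-Nd5 at -0.22 ± 0.0381 and mt-Nd6 at -0.30 ± 0.0722. Of the complex I assembly factors, 9 of 15 were lower and 2 higher. Lower were Ndufaf5, an enzyme that modifies Ndufs7 during assembly (-0.22 ± 0.0255), and Foxred1 (-0.18 ± 0.0172), and higher were Acad9 (0.07) and Ndufaf4 (0.05). Of 8 regulators of mitochondrial gene expression, 5 were higher in DH, Gabpa (0.20) and Nrf1 (0.11) among them, and 1 was lower. That was Ppargc1a, the coactivator PGC-1 alpha, with the largest change of the list (-0.34 ± 0.0255, adjusted p = 2.76e-19, edgeR).

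Between strain labels, 8.06% of all genes tested in DH were higher under 6NJ and 14.7% changed in either direction. In VH these shares were 4.87% and 9.92%. In DH 1 of 4 complex II genes, 1 of 9 of complex III and 1 of 11 of complex IV were higher under 6NJ. Of 16 gene models of complex V, 4 were higher and 1 lower. Ndufaf1, which chaperones an early assembly intermediate, was higher in both DH (0.16 ± 0.029, adjusted p = 0.00016) and VH (0.12 ± 0.0284, adjusted p = 0.00452). The assembly factors Foxred1 (-0.11) and Ndufaf6 (-0.16) were lower in VH. Of the mitochondrially encoded subunits, mt-Nd5 was lower in VH (-0.20 ± 0.0581, adjusted p = 0.027). mt-Nd3 was called higher in both regions. Whether its reads were exchanged with a near-identical nuclear copy was not tested, so its level is uncertain. Of the 8 regulators of mitochondrial gene expression, 1 was higher and 2 were lower under 6NJ in DH, and 0 were higher and 1 lower in VH. Ppargc1a was lower in both DH (-0.15 ± 0.0361, adjusted p = 0.0039) and VH (-0.12 ± 0.0347, adjusted p = 0.0235). Of the cytosolic ribosomal protein genes, 7 of 20 were higher under 6NJ in DH.

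The members' changes also went with properties of their transcripts, given here as descriptions over 35 genes that share the same libraries. The main transcript is the one with the highest summed estimated count of its gene, not divided by length. It need not be the usual message, as its share of these counts went down to 37.9%, for Ndufb2-205 with 4371 bases. Members with a longer main transcript tended to have a higher strain change (Spearman's rho 0.48 in DH and 0.63 in VH). The 12 members called in DH had main transcripts of 525 to 2661 bases with a median of 949, and the other 23 had 311 to 4371 bases with a median of 590. Members with a higher GC content tended to lower values after the cue (rho -0.57 and -0.72 in DH under 6J and 6NJ, -0.56 and -0.54 in VH). The cue changes in DH under 6NJ ran only from -0.08 to 0.07. For Shock_Cue minus home cage, with the same home cage libraries, rho was -0.22 and -0.44 in DH and -0.54 and -0.54 in VH. The trend was thus not particular to the cue alone. The 4 members that fell in VH labelled 6NJ had a median GC content of 56.1%, and the other 31 of 52.5%. For DH minus VH the values were closer to 0, at -0.18 for GC content and 0.15 for length. Whether length or GC content affects how these libraries were counted was not tested.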

How the data were processed

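Polyadenylated RNA of 72 libraries was sequenced with a stranded kit as single-end reads of 75 bp, per the labels' protocols. The deposited gene table holds whole-number counts per gene, not normalized, and the deposited transcript table holds estimated counts, not normalized. HISAT2, featureCounts, kallisto, FastQC, DESeq2 and the build GRCm38 are named in the submitters' processing notes. Versions, roles, the strand setting and filters were not given in the sources used here. Without a strand setting, reads of a gene and an antisense or overlapping gene cannot be told apart.

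Symbols were found for 55141 gene identifiers, and coordinates came from GENCODE vM21. Groups and codes were taken from the labels. In 180 within-group pairs the counts differed by a chi-square of at least 4.51 per degree of freedom, so none looked like a single library listed again. The test was that of edgeR 4.0.16 under R 4.3.3 (TMM, filterByExpr by group, quasi-likelihood F-test with robust estimation), with 1 mean per group and Benjamini-Hochberg adjustment over all genes tested at 0.05. Each region's 36 libraries shared a fit (19647 genes in DH, 19597 in VH), and all 72 for comparisons between regions (20255 genes). All 35 members passed the low-count filter in each fit. For transcripts, the estimated counts were first rounded to whole numbers. Adjusted p-values are edgeR's where no other tool is given, SE is the size of the log2 fold change over the square root of F, and CPM uses the TMM-scaled library total. The edgeR steps were checked on simulated data, where recovery was required only for changes larger than any gene-level change of the members. Of the lists, Coa1 was not found in the table.

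The members and lists were chosen with earlier results of these data known. Every member past the threshold could be named, with values for the 12 of smallest p, and in the strain and region means the 3 largest changes each way. Of other lists, counts and members past the threshold were named. Core subunits could always be given. Members named for their level, for a call that missed the threshold or for a motif, and Ndufc1 after Shock_Cue, were chosen after their values were seen. The settings varied were DESeq2 1.42.0 as the tool, RLE scaling, the low-count filter (none, or mean CPM from 1), fitting the compared groups alone, limma-voom (limma 3.58.1) with a random effect of the code number, leaving out the DH library 40A, leaving out codes with Lcn2 above 2 CPM, and the code as a block between regions. Leaving out codes 41A and 41B was chosen after seeing the data.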

Additional observations from a re-analysis of the deposited data

Results flagged for a closer look

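In 96 sets of 6 libraries, made of the 12 groups and 8 quantities (the summed members and 7 single members), the highest or lowest library was compared with the others of its set by Dixon's test at the 95% level, and 2 stood apart. About 1 in 20 such sets would by chance. Both were the DH library of code 41B in the home cage group labelled 6NJ. Its summed level of the 35 members was 2811.9 CPM, and the nearest library of the group was at 2496.0 CPM. Its Ndufa9 level was 94.9 CPM, and the nearest was at 84.38 CPM.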

How the results depend on the processing

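Of 242 counts and levels recomputed under an alternative 215 stayed within the limits set, and of 397 checks of the 49 single calls 362 were kept, 35 were lost and 0 reversed. Between regions 28 to 30 members passed in each alternative. Leaving out the Lcn2 codes gave 6 members by strain label in DH, 0 in VH, and 1 after the cue in VH 6NJ. Leaving out 41A and 41B gave 1 by strain label in VH, 0 after the cue in VH 6NJ and 1 in VH 6J, 1 for Shock_Cue minus home cage in DH 6NJ, and 1 and 2 by strain label in DH after the cue and after Shock_Cue. With DESeq2, member counts were 1 for the cue in DH 6J (Ndufv3), 1 for Shock_Cue minus home cage in DH 6NJ (Ndufc1), 1 and 4 by strain label in DH after the cue (Ndufa9) and after Shock_Cue, 4 transcripts by strain label in VH, and 4 lower and 1 higher for the cue in VH 6NJ. limma-voom gave 1 for Shock_Cue minus home cage in DH 6NJ. By strain label in DH it gave 1 after the cue and 2 after Shock_Cue, and for the cue in VH 6NJ 4 lower. The mean CPM filter gave 1 for the cue in DH 6J and 1 by strain label in DH after the cue. Fitting the compared groups alone gave 8 for the cue in VH 6J, 0 in VH 6NJ, and 0 by strain label in DH after Shock_Cue, and no low-count filter gave 0 for the cue in VH 6NJ. For these the cause was not tested. Per length, Ndufb9 and Ndufab1 moved to 389.3 and 222.4 TPM with transcript lengths, and on the forward strand alone NFY and SP letters were in 14.7% and 26.5% of member windows. With the replicate block (code) between regions, 28 members were lower and 1 higher, 29 in all, and 0 passed the test of the strain difference between regions. Deviations of the 36 pairs sharing a code correlated at -0.189 to 0.341 (median 0.0949, over 0.1 in 16). The code was not used as a pairing because not every pair was over 0.1, but 17 of the 36 correlated best with their own code among the 6 of their group, a hint from the data that a code may mark a shared source. Depth did not limit the members, with at least 910 counts each.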
